A study of Mus musculus with 19 samples.

Results

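Hippocampal RNA libraries were split here by how much choroid plexus RNA they held. The libraries were chosen by a measured value, the level of Ttr, and ranked on it. Ttr encodes the thyroid hormone and retinol carrier transthyretin, and ranking was within each group of genotype and sex. In each of the 4 groups the 2 libraries with the most Ttr formed the high class and the 2 with the least formed the low class. Of 19 libraries, 16 entered the comparison (8 high and 8 low), and the middle library of each of the 3 groups of 5 was set aside.

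The study sequenced RNA of the left hippocampus from mice aged 4 months, with 1 library per animal. All animals carried 5xFAD, transgenes that include mutant human APP and that the Thy1 promoter drives in neurons, so the controls are amyloid-bearing too and no library without 5xFAD was analysed here. The groups were 5xFADHEMI females (n = 5) and males (n = 5), here called 5xFAD, and 5xFADHEMI:CLUh2kbKIHO females (n = 4) and males (n = 5), which also carry a knock-in at the clusterin locus and are here called knock-in. The labels name no litter, dissection batch or date.

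The choroid plexus is a folded epithelium in the brain's ventricles that makes cerebrospinal fluid. It moves ions and water from blood, carries hormones, vitamins and folate across, and secretes proteins into the fluid. Its cells hold very large amounts of Ttr RNA, and a tuft of the tissue lies in the ventricle beside the hippocampus. In bulk RNA, fewer cells of a type and less RNA per cell cannot be told apart.

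Ttr chose the classes, so its levels are given only to describe them, in CPM, which are counts scaled to the library's total. In 5xFAD females the low libraries held 588 and 2707 CPM, the middle one 3374 CPM and the high ones 3844 and 5156 CPM. In 5xFAD males the low libraries held 37.3 and 227 CPM, the middle one 641 CPM and the high ones 992 and 3120.1 CPM. As a ratio of class means the classes were wider apart in these males (15.5-fold) than in these females (2.73-fold). In CPM they were not, with high and low means of 2056 and 132 CPM in the males and 4500 and 1648 CPM in the females.

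Among knock-in females the low libraries held 2959 and 3039 CPM and the high ones 4055 and 9992 CPM. In knock-in males the low libraries held 10.4 and 88.1 CPM, the middle one 2047 CPM and the high ones 2291 and 3288 CPM. The gap between the lower high library and the higher low one was 1.42-fold in 5xFAD females, 4.37-fold in 5xFAD males, 1.33-fold in knock-in females and 26.0-fold in knock-in males. Since ranking was within groups, both low knock-in female libraries held more Ttr than the high 5xFAD male library with 992 CPM.

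The label was set beside 63 other choroid plexus genes in 6 lists, which were chosen with earlier results of these data known. Their summed level, on the same CPM scale, ran from 1531 to 8823 CPM in the high libraries and from 980 to 4388 CPM in the low ones. Ranked by this sum in place of Ttr, 19 of 19 libraries fell in the same class. Library totals ran from 17.28 to 25.2 M counts (M, mega), with a mean of 19.01 M in high and 20.44 M in low libraries, a difference whose part in the results was not tested.

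**Figure D1:**
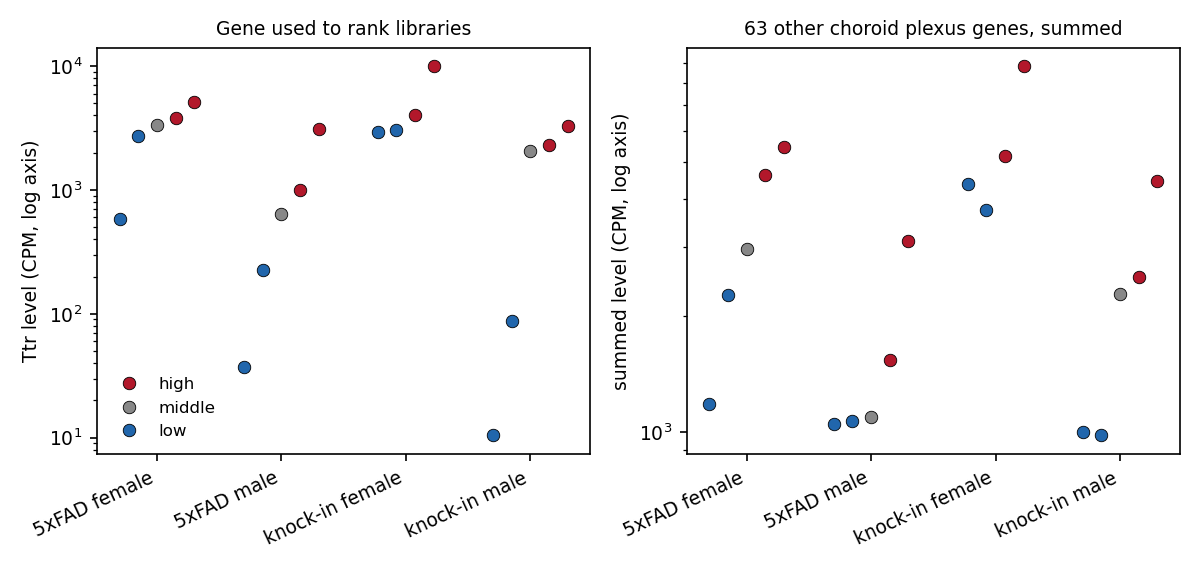
Ttr level (left) and the summed level of 63 other choroid plexus genes (right) in each of the 19 libraries, in CPM on log axes, 1 point per library. Every library keeps its class in both panels, and the classes overlap between groups: the low knock-in females lie above the low libraries of every other group.

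Counts were compared between high and low libraries with the group as a block, using edgeR's quasi-likelihood test with Benjamini-Hochberg adjustment over all genes. All gene levels from here on are CPM with TMM scaling. Of 18955 genes other than Ttr, 63 passed an adjusted p of 0.05 (0.332%): 61 were higher in the high libraries (0.322%) and 2 were lower (0.0106%). Of the 61, 17 belonged to the choroid plexus lists and 44 did not. The classes were drawn from a measured transcript, and these p-values take no account of that. The labels give no culture, litter or batch, so p-values measure the spread between these libraries.

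The count of called genes rested on few libraries. DESeq2 called 292 genes and limma-voom 1. Leaving out 1 library at a time gave between 0 and 136 calls. The count was 0 on leaving out any 1 of 9 libraries: 5xFAD females 1, 2 and 3, 5xFAD male 8, knock-in females 4 and 5, and knock-in males 6, 8 and 10. Without 5xFAD male 10 there was 1 call, without knock-in male 9 there were 28, without 5xFAD female 4 there were 40, and without 5xFAD male 6 there were 136. Without a block for group edgeR called 0 genes, with 1037 at an unadjusted p below 0.05 against 1284 with the block (6.77% of genes). The 61 higher genes stayed above 0 in 31 of 32 alternatives, and under a filter of 1 CPM in at least 8 libraries 60 of them were tested and 60 were above 0. Among the 32, ranking by the choroid sum compared the same libraries and so repeated the main fit.

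**Figure D2:**
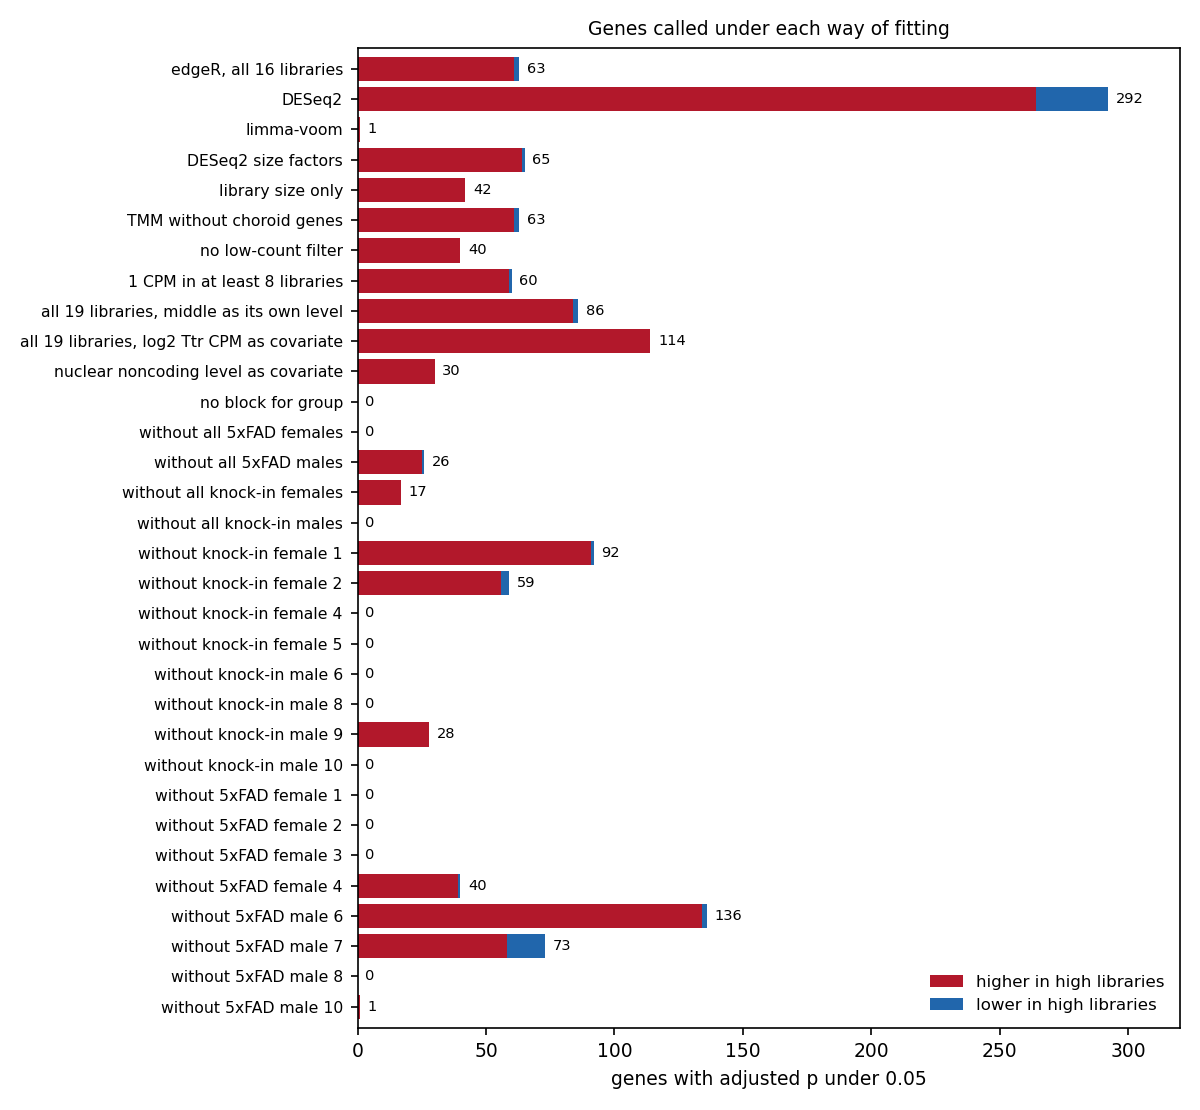
Number of genes with an adjusted p under 0.05 under each way of fitting the counts, with genes higher in the high libraries in red and lower ones in blue. The bars run from 0 calls, as without a block for group, to 292 with DESeq2, and edgeR on all 16 libraries gives 63.

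Choroid plexus genes other than Ttr stood in the same contrast as the rule, so their values are a description with no test. All 62 that could be fitted were higher in the high class, with a median log2 difference of 1.36 against -0.01 over all genes. In each of the 4 groups taken alone, 58 of the 62 were higher, where 9.08% of all genes were. The 4 that were not were the organic anion transporter Slc22a8, the retinol-binding protein receptor Stra6, the chemokine Ccl28 and the adhesion molecule Epcam. The median over the 62 was 2.12 in knock-in males, 1.59 in 5xFAD females, 1.18 in 5xFAD males and 0.77 in knock-in females. Lmx1b did not pass the filter on low counts.

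Homeobox factors that recognise a bicoid-type core, TAATCC, include Otx2, which is needed to form and keep the choroid plexus. The letters were searched on both strands, as TAATCC or its reverse complement GGATTA, in the 250 bases before each start site in RefSeq promoters of GRCm38.p6. They occurred in 4 of 65 promoters of 46 choroid list genes (6.15%), in 3 of 55 promoters of genes called higher (5.45%) and in 2054 of 32851 promoters of all genes (6.25%). The 4 stretches are shown because they are all that the searched promoters of these 46 choroid list genes hold. Each runs 5′ to 3′ along its gene's strand, with the matching letters in capitals and up to 50 bases of the searched region on either side.
Cd9, chr6:125494798-125494903, minus strand: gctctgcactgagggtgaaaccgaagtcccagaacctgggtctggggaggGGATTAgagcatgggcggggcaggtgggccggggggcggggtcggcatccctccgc
Vat1l, chr8:114205511-114205616, plus strand: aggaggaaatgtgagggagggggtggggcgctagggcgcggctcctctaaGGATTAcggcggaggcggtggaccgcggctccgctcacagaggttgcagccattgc
Ace, chr11:105967871-105967947, plus strand: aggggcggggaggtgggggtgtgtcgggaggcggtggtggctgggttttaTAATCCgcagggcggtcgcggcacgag
Otx2, chr14:48665265-48665359, minus strand: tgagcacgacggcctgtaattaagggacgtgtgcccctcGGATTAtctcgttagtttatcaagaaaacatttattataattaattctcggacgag
A match is a description of these letters and not a bound site. Cd9 differed little between the classes (log2 0.24), Vat1l and Ace differed more (1.14 and 1.82), and Otx2 itself differed by 2.30.

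Ion and water transport genes had the highest median of the 6 lists, a log2 difference of 2.19 over 10 genes. Aqp1, the water channel of the fluid-facing membrane, ran from 0.536 to 75.6 CPM in high libraries (median 26.1) and from 0.205 to 27.8 CPM in low ones (median 2.10). Slc4a5, a sodium bicarbonate cotransporter, had the widest difference (log2 3.13, SE 0.79), with 1.31 to 75.8 CPM in high and 0 to 28.7 CPM in low libraries. Both overlapped between the classes, with the low knock-in females above the high library 5xFAD male 6. The potassium channel Kcnj13 held 0.153 and 1.51 CPM in the low 5xFAD males and 5.60 and 20.4 CPM in the high ones. Slc4a2, an anion exchanger found in many cells, differed less (log2 0.88), from 34.7 to 152 CPM in high and 31.7 to 83.9 CPM in low libraries.

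Among secreted factors the median difference was 1.75 over 12 genes. Enpp2, which encodes autotaxin, the enzyme that makes lysophosphatidic acid, was the most abundant at 424 to 4401 CPM in high libraries (median 1626) and 166 to 1881 CPM in low ones (median 230.4). Kl, the FGF23 co-receptor klotho that is also shed into the fluid, ran from 35.4 to 426 CPM in high and from 17.7 to 202 CPM in low libraries. Among the low libraries, Enpp2 was at 1563 and 1881 CPM in knock-in females, at 239.8 and 686 CPM in 5xFAD females and at 166 to 221 CPM in males. Igf2, an insulin-like growth factor, differed by 1.38, its binding protein Igfbp2 by 1.31, and coagulation factor F5 by 2.87.

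Carriers of nutrients, hormones and drugs had the lowest median, 0.59 over 13 genes. Folr1, the folate receptor that loads folate into the fluid, was at 3.10 to 84.2 CPM in high libraries (median 27.0) and at 0.231 to 35.9 CPM in low ones (median 2.21). By contrast Slco1c1, a thyroid hormone carrier that brain capillaries also use, differed by 0.45. It held 58.9 to 118 CPM in high and 42.6 to 91.1 CPM in low libraries. Rdh5, a retinol dehydrogenase, differed by 1.54 and the copper importer Slc31a1 by 0.81.

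Receptors and signalling genes had a median of 1.82 over 9 genes. Htr2c, the serotonin 2C receptor, held 58.7 to 119 CPM in high libraries (median 77.3) and 15.8 to 80.3 CPM in low ones (median 43.4), a difference of 0.94. Hippocampal neurons express it as well. Prlr, the prolactin receptor, ran from 14.3 to 106 CPM in high and from 0.969 to 68.4 CPM in low libraries, a difference of 2.26. Calml4, a calmodulin-like protein, was at 4.17 to 17.9 CPM in high libraries, and 6 of these lay above the highest low library at 7.90 CPM.

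Genes of the epithelium and its junctions had a median of 1.11 over 10 genes. The pore-forming claudin Cldn2 ran from 2.62 to 51.2 CPM in high and from 0.231 to 26.7 CPM in low libraries (log2 2.70). The epithelial keratins Krt8 and Krt18 differed by 2.01 and 2.07. The tetraspanin Cd9, which microglia and oligodendrocytes also hold in quantity, was at 77.2 to 133 CPM in high and 55.7 to 114 CPM in low libraries.

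Transcription factors and matrix genes had a median of 2.01 over 8 genes. Otx2 itself was at 5.12 to 41.4 CPM in high libraries (median 16.02) and at 0.573 to 16.2 CPM in low ones (median 1.74). The LIM homeobox gene Lmx1a, active at the roof plate from which choroid plexus forms, differed by 2.29, and the short-chain collagens Col8a1 and Col8a2 differed by 2.32 and 2.26. Zic1, which thalamic and septal neurons also express, had 1.02 with a SE of 0.54.

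**Figure D3:**
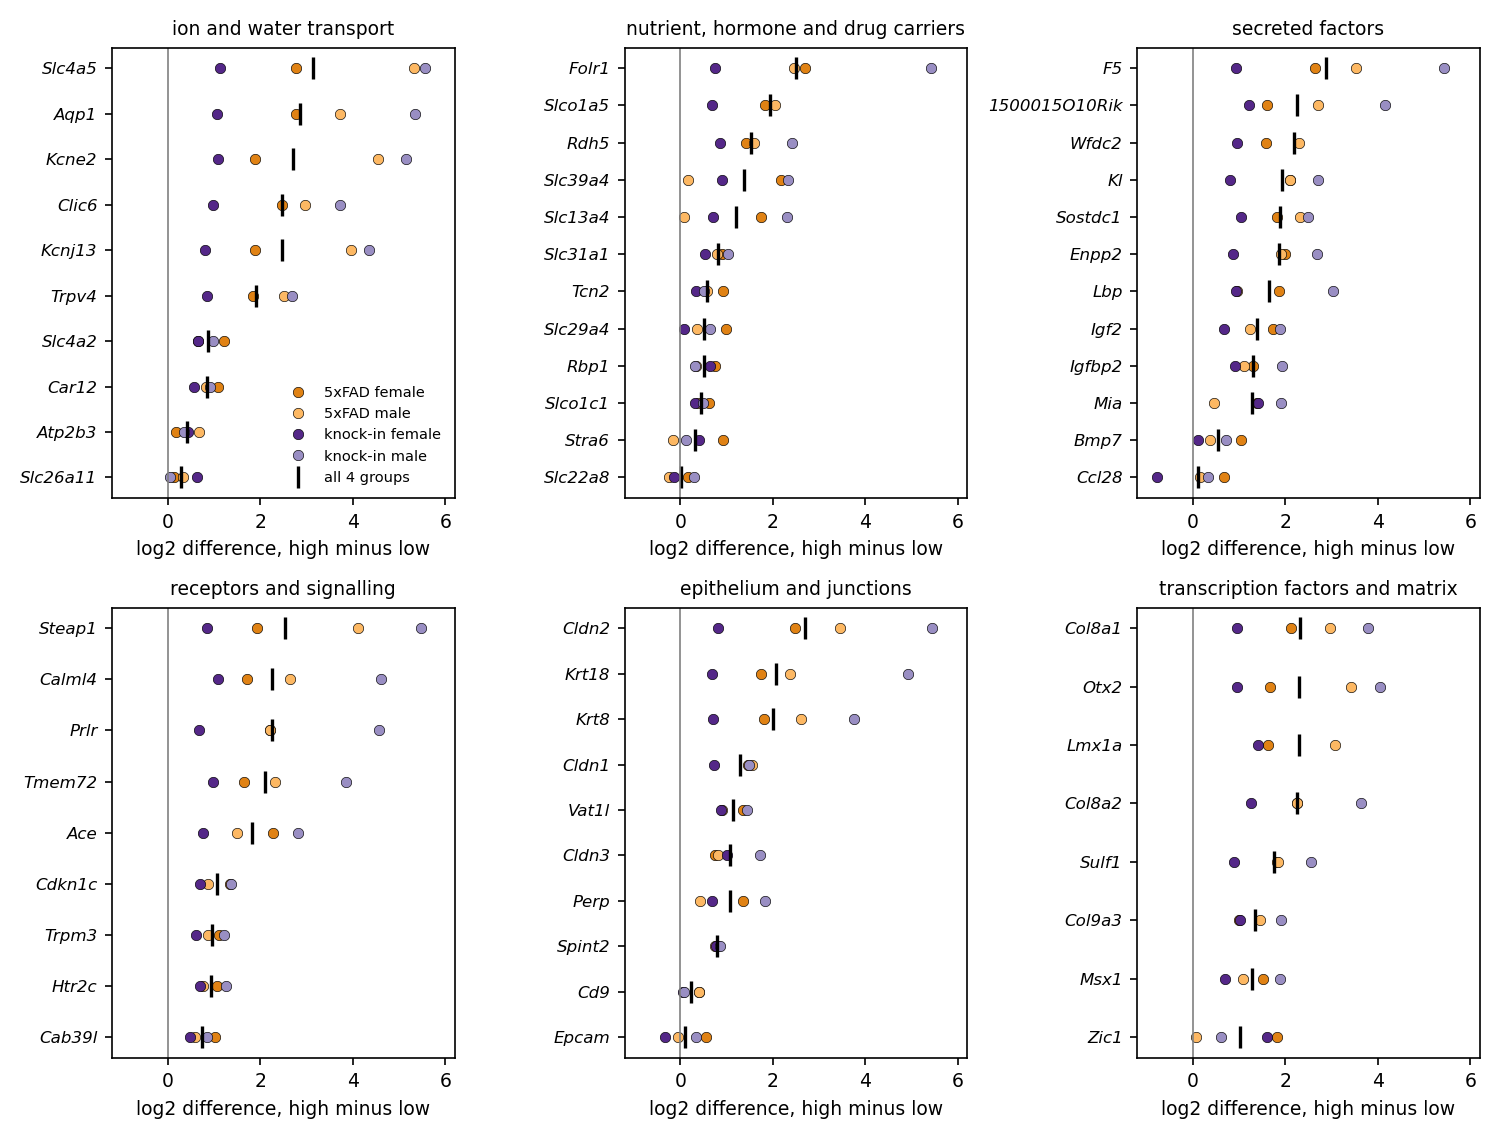
Log2 difference between high and low libraries for 61 of the 62 fitted choroid plexus genes in 6 lists, as 1 point per group of genotype and sex and a black bar for the fit over all 4 groups. Knock-in females give most of the smallest differences and knock-in males most of the largest. Slco1a5, Wfdc2 and Lmx1a have no knock-in male point, because both low libraries together held at most 3 counts.

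Levels at the ends of the Ttr range are given as a description of 2 single libraries, which the rule's own values picked and which differ in sex. The library with the least Ttr, knock-in male 8, was set against the one with the most, knock-in female 4. Of 63 genes, 26 were below 5% of the upper level in the lower library, 20 were at 5 to 25%, 12 at 25 to 75%, and 4 above 75%; Lmx1b was at 0 in the upper library. Folr1 had 5 counts in the lower library and stood at 0.274% of the upper one, and Slc4a5 had 0 counts. Enpp2, by contrast, kept 201 CPM or 4.57%, Htr2c 34.3%, Cd9 81.0% and Slc22a8 84.5%.

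The 3 middle libraries took no part in the comparison, but the rule itself placed each between the classes of its group in Ttr. The called genes were picked for a rise in these same groups, so the counts below are a description and no independent support. Of the 17 called choroid genes, the level lay between the low and the high mean of the same group for 16 genes in knock-in male 7, for 16 in 5xFAD female 5 and for 11 in 5xFAD male 9. Of the 44 other called genes, 41, 42 and 24 lay between those means in the same 3 libraries. Among the 14238 genes whose mean log2 CPM was 1 or more, 1390, 1861 and 1598 did so. Genes whose low mean was above the high mean could not count here, so these are not a like baseline for called genes. In 5xFAD male 9, 17 of the 44 were at or below the low mean, as were 6789 of the 14238.

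Outside the choroid lists, 44 genes passed the test as higher, in the same contrast that the Ttr rule set. Whether they follow choroid plexus RNA as the list genes do was not tested, and their p-values take no account of the rule. The 10 named by the size of their difference included transporters, membrane adaptors, a tubulin and a basement membrane collagen. Scara5, a ferritin receptor, ran from 0.833 to 6.03 CPM in high libraries (median 4.23) and from 0.0923 to 3.31 CPM in low ones (median 0.378). Its log2 difference was 2.15 (SE 0.44, adjusted p 0.0476). The highest low values, 2.65 and 3.31 CPM, came from the knock-in females, and 5 of 8 high libraries lay above them.

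Oca2 and Slc24a5, both ion transporters known from the melanosomes of pigment cells, also rose. Oca2 was at 0.774 to 9.77 CPM in high and 0.256 to 4.66 CPM in low libraries (log2 2.01, SE 0.34, adjusted p 0.0291). For Slc24a5 the difference was 1.47 (SE 0.25, adjusted p 0.0291), with 3.04 to 16.6 CPM against 0.725 to 7.69 CPM. Within groups the high libraries were above the low ones on average in 4 of 4 groups for both genes, while across groups the classes overlapped.

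Steap2, a metalloreductase that reduces iron and copper for uptake, was the most abundant of the 10 named. It held 18.2 to 67.2 CPM in high libraries (median 29.2) and 6.71 to 30.7 CPM in low ones (median 8.69), a difference of 1.27 (SE 0.20, adjusted p 0.0291). The low males and 5xFAD female 1 were at 9.23 CPM or less, and the other low females at 19.6 CPM or more. Its relative Steap1, a member of the choroid lists, differed by 2.54.

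Other named rises were of single genes. Epn3, an epsin of endocytosis, rose by 1.83 (SE 0.31, adjusted p 0.0295), and Baiap2l1, an adaptor that bends membrane and binds actin, by 1.72 (SE 0.31, adjusted p 0.0295). The alpha tubulin Tuba1c rose by 1.29 (SE 0.23, adjusted p 0.0315), from 3.51 to 30.4 CPM in high against 1.99 to 15.0 CPM in low libraries. Col4a4, a basement membrane collagen, rose by 1.41 (SE 0.29, adjusted p 0.0476), and 6 of 8 high libraries lay above the highest low one at 3.58 CPM. Wdr86 rose by 1.98 (adjusted p 0.0445) and Rd3, a regulator of guanylate cyclase in photoreceptors, by 1.68 (adjusted p 0.0476).

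Of the complement list, 1 of 13 genes passed, where 0.332% of all genes did. Cd59a, which blocks the membrane attack complex, was at 4.11 to 32.7 CPM in high libraries (median 14.2) and 3.07 to 15.2 CPM in low ones (median 4.88). Its difference was 1.08 (SE 0.22, adjusted p 0.0476), and the median of the list was 0.08. In 5xFAD males, one high library at 4.11 CPM lay below a low one at 4.64 CPM.

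A few further called genes were chosen after their values were seen. Crhr2, a receptor for urocortins, rose by 1.23 (adjusted p 0.0441), with 1.53 to 9.66 CPM in high and 0.938 to 4.29 CPM in low libraries. Cgnl1, a tight junction protein, rose by 1.16 (adjusted p 0.0332), and Car14, a membrane-bound carbonic anhydrase, by 0.83 (adjusted p 0.0403). Phactr2, a phosphatase and actin regulator, was the 1 gene that limma-voom also called. It held 31.8 to 60.6 CPM in high and 17.7 to 36.8 CPM in low libraries, with 7 of 8 high libraries above every low one (log2 0.74, SE 0.11, adjusted p 0.0291).

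The 2 genes that fell were Wnt10a, a secreted Wnt ligand, and Ier5l, a relative of an immediate early response gene. Wnt10a was at 2.13 to 5.77 CPM in high libraries (median 3.58) and at 4.34 to 9.07 CPM in low ones (median 6.57), a log2 difference of -0.94 (SE 0.20, adjusted p 0.0476). Ier5l was at 14.9 to 25.5 CPM in high and 21.1 to 32.5 CPM in low libraries, a difference of -0.50 (SE 0.10, adjusted p 0.0476). Both were lower in 4 of 4 groups, where 8.06% of all genes were, and both classes overlapped. Of 32 alternatives, 27 lost the call of Wnt10a and 23 that of Ier5l, and neither changed sign.

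**Figure D4:**
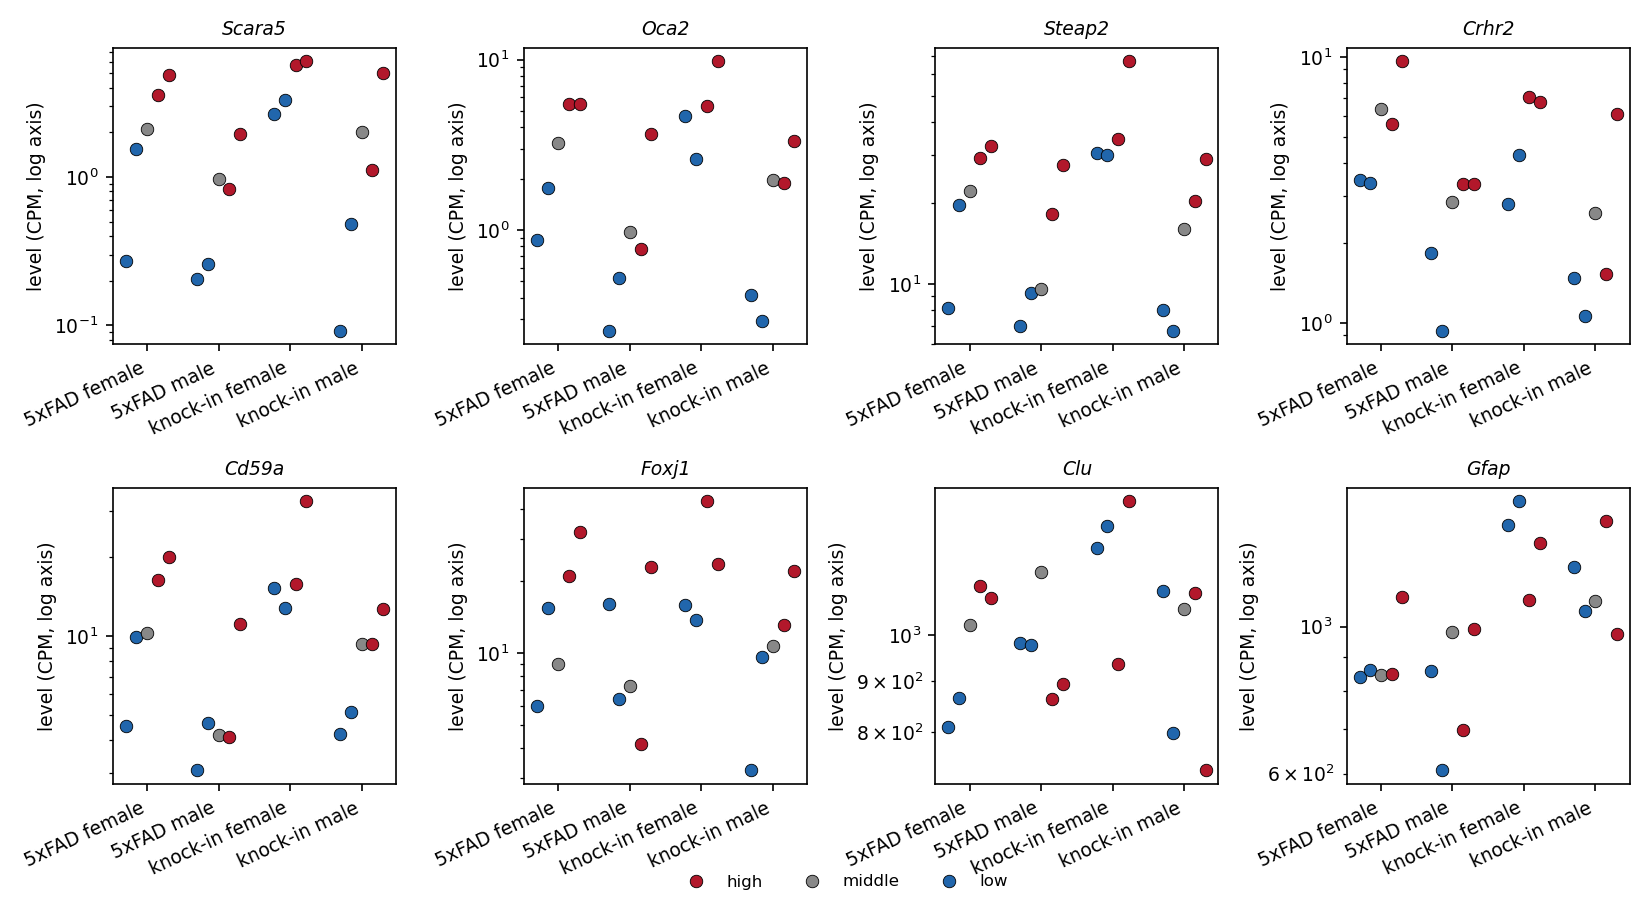
Levels of 8 genes in each of the 19 libraries, in TMM-scaled CPM on log axes, 1 point per library, coloured by class. Scara5, Oca2, Steap2, Crhr2 and Cd59a are higher in high libraries by 1.08 to 2.15 on the log2 scale, Foxj1 is mixed in 5xFAD males, and Clu and Gfap show no order by class.

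Ependymal cells line the ventricles and carry motile cilia, and they border the choroid plexus. Of 22 ependymal genes 21 were higher in the high class, against 9166 of all 18955 genes, with a median of 1.07. However, 0 passed the edgeR test, and 12 had an unadjusted p below 0.05 in edgeR (6.77% of all genes). DESeq2 called 1, Rsph1 (292 of all 18955 genes), and 4 were higher in all 4 groups (9.08% of all genes). The 1 not higher in the high class, Mia3 at -0.03, is a secretory pathway gene active in many cells. Group medians were 1.53 in 5xFAD females, 1.67 in knock-in males and 1.11 in knock-in females, but -0.33 in 5xFAD males. Rsph1, a radial spoke protein of cilia, was 8.72 ± 4.07 CPM in high and 3.64 ± 2.08 CPM in low libraries (SD, n = 8 each; log2 1.27, edgeR adjusted p 0.101, DESeq2 adjusted p 0.00163). Foxj1, the factor that turns on motile cilia genes, held 4.17 and 22.8 CPM in the high 5xFAD males and 16.01 and 6.41 CPM in the low ones. In those males the classes crossed for Foxj1.

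Other neighbours of the choroid plexus were near 0. The median was 0.02 for 20 fibroblast genes of the leptomeninges and choroid stroma, -0.05 for 16 endothelial genes, 0.00 for 12 mural cell genes and -0.18 for 5 erythrocyte genes, and 0 genes of these lists passed by edgeR or DESeq2 (unadjusted p below 0.05 in edgeR for 2, 2, 0 and 0). Border macrophage genes had a median of 0.28 over 12 genes, with 0 at an unadjusted p below 0.05. The fenestrated-vessel gene Plvap differed by 0.32 (edgeR adjusted p 0.437), at 11.4 ± 2.71 against 9.08 ± 1.30 CPM.

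Lists of hippocampal cells and neighbouring regions held 0 edgeR calls. Medians were -0.15 for 10 dentate granule cell genes, -0.06 for 12 CA pyramidal genes, 0.06 for 15 thalamic and habenular genes and 0.04 for 12 of striatum and septum, with unadjusted p below 0.05 for 0, 0, 0 and 1 of them and 0 DESeq2 calls. Of 12 cortical genes 12 were below 0, with a median of -0.37. Of these, 5 were lower in all 4 groups (8.06% of all genes) and 6 had an unadjusted p below 0.05 (6.77% of all genes). Like counts were lower in all 4 groups in other lists: 6 of 14 immediate early, 7 of 20 ribosomal protein and 5 of 14 pan-neuronal genes. Each of these lists had 1 gene above 0. Their medians were smaller, at -0.18, -0.14 and -0.11, and 0, 5 and 1 of their genes had an unadjusted p below 0.05 in edgeR. Lamp5, a marker of upper cortical layers and some interneurons, was 29.2 ± 5.06 CPM in high and 45.2 ± 14.4 CPM in low libraries (log2 -0.62, SE 0.16, edgeR adjusted p 0.123), and it was the 1 gene of the list that DESeq2 called (adjusted p 0.0109). The part of cortical RNA in the other results was not tested.

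Neuronal and glial lists had medians near 0. Interneuron genes had -0.02 over 12 genes, with 0 calls by edgeR or DESeq2 and 2 at an unadjusted p below 0.05 in edgeR. The median was -0.11 for 14 pan-neuronal genes, 0.15 for 14 myelin genes, 0.02 for 14 astrocyte genes, -0.03 for 12 homeostatic microglial genes and 0.04 for 18 plaque-associated ones, with 0 edgeR calls in each (unadjusted p below 0.05 for 1, 0, 0, 0 and 1). DESeq2 called 1 of these genes, Cd63. Cd63, a tetraspanin of endosomes in the plaque-associated list, differed by 0.33 (SE 0.09, edgeR adjusted p 0.139, DESeq2 adjusted p 0.0251), at 99.5 ± 23.8 against 79.4 ± 18.2 CPM. Interferon genes had a median of 0.02, immediate early genes -0.18, ribosomal protein genes -0.14, nuclear noncoding RNAs -0.06 and mitochondrially encoded genes 0.05. These 5 lists held 0 calls by edgeR or DESeq2, with an unadjusted p below 0.05 in edgeR for 5 ribosomal protein genes.

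**Figure D5:**
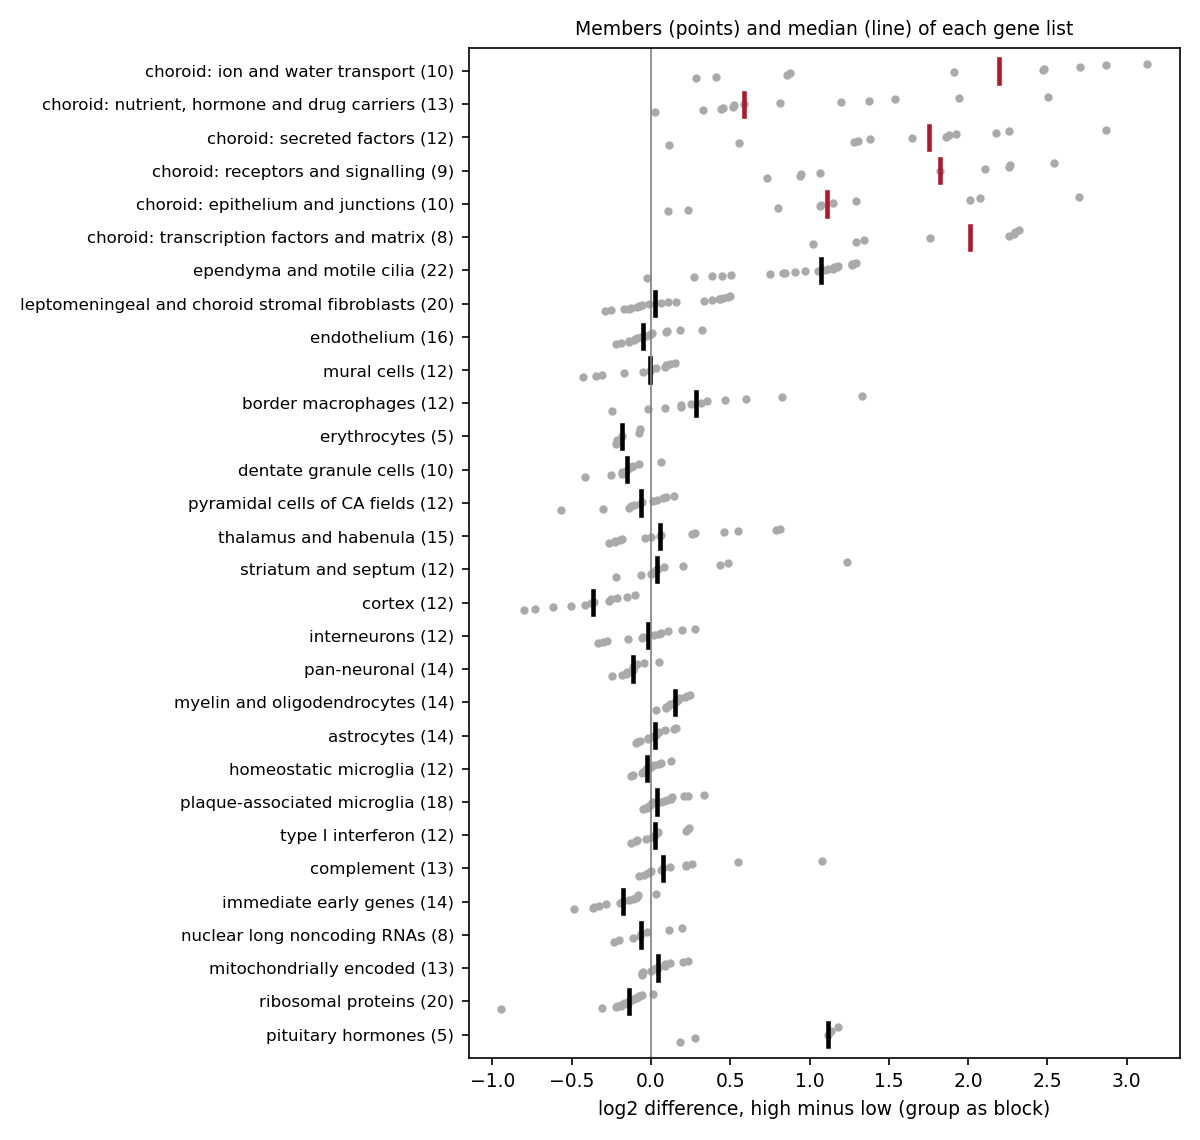
Log2 difference between high and low libraries for the members of 30 gene lists (points) and each list's median (bar, red for choroid plexus lists), with the number of fitted genes in brackets. The 6 choroid plexus medians run from 0.59 to 2.19, ependymal genes have 1.07, pituitary hormones have 1.12 over 5 genes, and the other medians lie between -0.37 and 0.28.

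A set of 17 single genes covered clusterin, amyloid, secreted proteins, glia and nuclear RNAs, and held 0 calls by edgeR or DESeq2 and 0 at an unadjusted p below 0.05. Clu, the gene the study altered, was at 732 to 1364 CPM in high libraries and 799 to 1288 CPM in low ones. The means were 1013 ± 196 and 1007 ± 186 CPM (log2 0.01, SE 0.11, edgeR adjusted p 0.994). Gfap differed by 0.05 (SE 0.12), Apoe by 0.08 (SE 0.17), App by 0.03 (SE 0.09), Trem2 by -0.01 (SE 0.13), Cd68 by -0.03 (SE 0.16) and Ide by 0.02 (SE 0.10).

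Secreted proteins that choroid epithelium also makes were in this set. Trf, transferrin, which oligodendrocytes make in quantity, differed by 0.25 (SE 0.13, edgeR adjusted p 0.808), and Cp, ceruloplasmin, by 0.21 (SE 0.16). Cst3, cystatin C, differed by -0.11 (SE 0.12) and Ptgds, prostaglandin D synthase, by -0.05 (SE 0.19). The nuclear RNAs Meg3 and Malat1 had wide errors, at -0.06 (SE 0.32) and -0.02 (SE 0.35). Meg3 spread from 349 to 3657 CPM within the high libraries alone.

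Whether the difference between classes itself differed between genotypes, or between sexes, was tested over all genes. Neither edgeR interaction called a gene. For genotype 321 genes had an unadjusted p below 0.05 (1.69%), and DESeq2 called 1, the predicted gene Gm20431. For sex there were 347 (1.83%), and DESeq2 called 1, the predicted gene Gm6361. Their DESeq2 log2 estimates were extreme, at -20.3 (SE 3.86) for Gm20431 and 23.0 (SE 4.03) for Gm6361. Whether these estimates rest on libraries without counts was not tested. The genes with the lowest p for genotype were Otof, P4ha2, Gm28884, Adam1b and Foxo1, all with an adjusted p of 1.00. For sex they were Ndst3, Steap1, Kcne2, Calhm5 and Cd300lg. Kcne2, a potassium channel subunit of the choroid lists, had within-group differences of 1.88 and 1.09 in 5xFAD and knock-in females and 4.54 and 5.16 in the males. The ratio of class means in Ttr was also larger in males, at 15.5 and 56.6 against 2.73 and 2.34 in 5xFAD and knock-in females. The sex and this ratio cannot be told apart.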

How the data were processed

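Bulk RNA-seq libraries of 19 hippocampi were used. The authors deposited estimated counts per gene as whole numbers, and the tools listed per the submitters' processing notes are Salmon, FastQC, Seurat and DESeq2, with the build mm39. Whether strand was kept is not given in the sources used here. The lowest total of any gene was 28 counts. Deposited normalized and variance-stabilized tables were not used. GENCODE M21 names on GRCm38 matched 20023 of 20655 gene IDs (96.9%).

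Classes followed the Ttr rule given above, and 36 within-group pairs of libraries differed by more than sampling noise (chi-square per gene at least 10.3). Counts were fitted in edgeR 4.0.16 (R 4.3.3; TMM, filterByExpr with a minimum of 10 counts, robust quasi-likelihood, Benjamini-Hochberg over 18956 genes including Ttr), with group as a block and 11 residual degrees of freedom. The code was tested on simulated data. Alternatives used DESeq2 1.42.0, limma 3.58.1 voom, other scalings, filters and covariates, and left out libraries or groups.

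Named are the choroid list genes, the 10 largest rises and falls outside them (mean at least 1 log2 CPM, no predicted genes), up to 3 genes per other list and 17 single genes. Members and all 31 lists were chosen with earlier results of these data known. Cd9 stands in 2 lists. The values of 1 gene of the choroid lists are not reported here.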

Additional observations from a re-analysis of the deposited data

Results flagged for a closer look

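Levels of 58 gene and class pairs were searched for a library that stands apart from the rest of its class by Dixon's test, which chance alone passes in about 1 of 20 groups, and 5 were found. Of these, 4 came from knock-in female 4, the library with the most Ttr. In the high class it held 16.63 CPM of Slc24a5 where the others ran from 3.04 to 6.55 CPM, and 30.41 CPM of Tuba1c against 3.51 to 12.2 CPM. It held 67.16 CPM of Steap2 against 18.2 to 34.5 CPM, and 1832 CPM of Cst3 against 1056 to 1387 CPM. In the low class knock-in female 5 held 0.7767 CPM of Timp1, where the others ran from 0.205 to 0.4665 CPM. Slc24a5, Tuba1c and Steap2 are called genes, and 0 genes of any kind were called without knock-in female 4.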

How the results depend on the processing

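Of 63 called genes, the count moved by over 1.5 times to 292 with DESeq2, 1 with limma-voom, 40 with no filter on low counts, 114 with log2 Ttr CPM as a covariate over 19 libraries, 30 with the nuclear noncoding level as a covariate and 0 with no block for group. Without a whole group it was 0 (5xFAD females), 26 (5xFAD males), 17 (knock-in females) and 0 (knock-in males). Leaving out 1 library gave 0 to 136 calls, with 0 in 9 of 16 fits and 1005 to 1638 genes at an unadjusted p below 0.05. The causes were not tested. DESeq2's size factors (65), TMM without choroid genes (63), library size only (42), the stricter filter (60) and a middle level over 19 libraries (86) stayed within that range. For the genotype and the sex interaction, DESeq2 gave 1 call each, and every edgeR fit without a library gave 0.

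Over 32 alternatives the 12 called genes named outside the choroid lists kept their direction in 384 of 384 fits, and their call in 153. Ranking by the choroid sum, counted among these, repeated the main fit. The genes were also picked for their difference in these same libraries. No paired analysis was possible because the high and low libraries compared lie within the same group of genotype and sex and so share no replicate number. Low genes have few counts in the low knock-in male libraries, where Slco1a5, Wfdc2 and Lmx1a had 3 or fewer over both libraries.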

Other observations

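Hormone transcripts of the pituitary, a gland outside the hippocampus, had a median log2 difference of 1.12 over 5 genes, with 5 of 5 above 0 and 0 higher in all 4 groups. The group medians were 1.85 in 5xFAD females, 2.31 in 5xFAD males, 0.55 in knock-in females and -1.51 in knock-in males. Gh, growth hormone, was at 32.2 CPM in the low library knock-in male 8, at 12.9 CPM in the high library 5xFAD male 10, and at 7.49 and 5.45 CPM in the high 5xFAD females. It was at 0 in 6 of 19 libraries. The summed level of 5 such genes ran from 1.19 to 27.8 CPM in high and from 1.28 to 41.4 CPM in low libraries, and 0 of the 5 passed the edgeR test (1 at an unadjusted p below 0.05) or DESeq2's.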
